A study of Mus musculus with 32 samples.

Results

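The 44 genes described here encode the machinery that duplicates the genome: the factors that mark and license origins, the helicase and its activators, the polymerases and primase, the sliding clamp and its loader, the single-strand binding complex RPA, the enzymes that finish Okazaki fragments, and the enzymes that supply deoxynucleotides. They were taken as a list of gene symbols by their roles in replication. The rule used no measured value, although the list was drawn up with earlier results of these data known. The symbols were matched to the Ensembl identifiers of the count tables. All 44 were found among the 30934 named genes of the tables, and all 44 passed the filter on low counts, among 15280 genes that did.

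In replication licensing, the origin recognition complex (ORC) binds origins and, together with Cdc6 and Cdt1, loads the ring of MCM proteins on DNA before S phase begins. In S phase Cdc45 and the GINS complex turn that ring into an active helicase, primase and the polymerases copy both strands, and the clamp Pcna, loaded by the RFC complex, holds the polymerases on DNA. Many of these genes are transcribed under E2F factors around the start of S phase, and mouse embryonic stem cells (ESCs), which pass quickly from one S phase to the next, are known for high levels of them.

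RNA was sequenced from the 3′ ends of transcripts (QuantSeq) in 32 cultures of the mouse ESC line C1, in 8 groups of 4. C1 cells lack endogenous β-catenin and carry a fusion in which a destabilizing domain (DD) and mCherry precede β-catenin S33Y, a constitutively active form. The fusion is transcribed from a TRE3G promoter when doxycycline (dox) is given, through an rtTA activator under the EF1a promoter, and its protein is stabilized by trimethoprim (TMP). The study asked how the dose and the timing of this exogenous β-catenin act on pluripotency and on the first days of differentiation.

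All groups therefore shared the knockout and the fusion gene, and C1 is a single engineered line. Before sorting, cells grown for 3 passages in 2i/L, or in serum with LIF as the labels have it, received 10 μM TMP for 48 h, alone for C1 and with 100 ng/mL dox for the induced groups, which were sorted by mCherry into a middle (C1M) and a high fraction (C1H). These 3 groups were collected at day 0. The other 5 groups were collected at day 4 of monolayer differentiation in NDiff227: C1T came from C1 cells kept in TMP, C1MV and C1HV from C1M and C1H cells with the inducers withdrawn (DMSO), and C1MDT and C1HDT from C1M and C1H cells kept in dox and TMP. The labels number the samples of a group as biological replicates without naming separate thaws or days, so the p-values measure the spread between these cultures. The study's heatmap caption says that the samples averaged for a group came from the same experiment. Spread between separate experiments is then not part of these p-values.

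The libraries held 1366951 to 3648787 reads on genes, with a median of 2402467, and 3 counts, the floor used here, came to 0.822 to 2.19 CPM. Values are counts per 1000000 reads on genes (CPM) after TMM scaling, and where 4 are given they are those of replicates 1 to 4 of the group. Differences are log2 fold changes ± SE from one edgeR fit of all libraries, tested by quasi-likelihood, and FDR is the Benjamini-Hochberg adjusted p over the 15280 genes, with calls at an FDR under 0.05. Reads come from 3′ ends without a correction for length, so levels were not compared between genes. In these bulk cultures, fewer cells in S phase and less RNA per cell cannot be told apart. As a check of the labels, Ctnnb1, which the fusion supplies, had 8.81, 6.22, 5.19 and 11.02 CPM in C1, 9.76, 12.1, 9.45 and 17.7 in C1M and 40.5, 40.4, 48.7 and 34.9 in C1H. It was higher in C1H than in C1 by 2.37 ± 0.21 (FDR 6.48e-20), whereas in C1M the difference of 0.61 ± 0.25 (FDR 0.0553) did not pass the threshold. At day 4 it lay between 25.4 and 36.3 CPM in the groups kept in dox and TMP and between 4.13 and 12.4 CPM in the other groups. The study's introduction states that the line from which C1 was made lost the whole coding part of the gene. Whether the 3′ reads left in C1 come from outside the deleted part was not tested, so they do not check the knockout.

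Shares of reads and cell type markers moved with the day and stand beside every comparison of day 4 with day 0. In the study's methods 2i/L holds LIF and inhibitors of GSK3 and MEK, which were withdrawn for differentiation. Day and medium therefore cannot be told apart. Reads outside annotated genes made up 19.6 to 23.1% of uniquely aligned reads at day 0 and 10.1 to 15.7% at day 4, and mitochondrial reads 2.05 to 2.66% against 0.533 to 1.82%. The summed level of 8 ES cell markers, of the general (Pou5f1, Sox2) and the naive state (Nanog, Zfp42, Esrrb, Klf4, Tfcp2l1, Dppa3), was between 4004 and 5555 CPM at day 0 and between 495 and 1442 CPM at day 4. Not all of them went with the sum, since group means of Pou5f1 lay between 39.6 and 68.8 CPM at day 0 and between 37.1 and 64.5 CPM at day 4, and those of Dppa3 were 1.69 CPM or less, under the upper end of the floor. Summed endoderm markers lay between 10.5 and 39.4 CPM at day 0, between 9.79 and 23.4 CPM in C1T, and between 243 and 667 CPM in the 4 day 4 groups with earlier induction, with Dab2 and Gata6 detected and Afp at or under the floor. Summed neuroectoderm markers were at 29.6 to 39.02 CPM at day 0 and 119 to 225 CPM at day 4. Summed trophoblast markers were at 192 to 236 CPM at day 0 and 59.1 to 149.7 CPM at day 4, with Elf5 and Cdx2 at or under the floor. Most of that sum was Tfap2c, with group means of 194 to 207 CPM at day 0 and 39.7 to 90.1 CPM at day 4, while Krt8 had means of 7.07 to 7.78 CPM at day 0, 3.21 CPM in C1T and 11.8 to 19.9 CPM in the other day 4 groups, and Krt18 means of 6.94 to 7.99 CPM, 11.1 CPM and 23.9 to 30.1 CPM. Summed fibroblast markers lay between 7.54 and 21.6 CPM, and summed mesoderm markers lay between 32.6 and 60.7 CPM at day 0 and between 12.4 and 28.3 CPM at day 4, with T at or under the floor in every group. The part of these shifts in the results below was not tested.

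Promoter sequence was examined because many of the members are textbook targets of E2F. RefSeq start sites of GRCm38.p6 gave windows from 250 bases before to 50 after the start for 36 of the 44 members (44 windows). An E2F-type motif, written TTTCCCGC, TTTCGCGC, TTTGCCGC or TTTGGCGC and searched on both strands with overlapping matches counted separately, was found in 14 of the 36 members and in 31.8% of their windows, against 2.26% of all 32851 windows. The CCAAT box was found in 56.8% of the members' windows, against 37.4% of all, and the CHR element TTTGAA in 11.4%, against 17.9%. The 14 members were Orc1, Orc3, Cdc6, Cdt1, Mcm3, Mcm5, Mcm6, Mcm7, Gins3, Pold1, Pold3, Pole2, Rfc3 and Lig1. A match is a string of letters and was not tested for binding. Below are the stretches from 180 bases before the start to 8 from it on for 5 members, with E2F-type matches in capitals. Orc1 is shown because it fell over differentiation, Mcm5, Mcm6 and Rfc3 because they rose, and Rpa2, which rose, because its window held no match. The stretches lie at chr4:108579274-108579461 (+) for Orc1, chr8:75109329-75109516 (+) for Mcm5, chr1:128359698-128359885 (-) for Mcm6, chr5:151651201-151651388 (-) for Rfc3 and chr4:132768180-132768367 (+) for Rpa2.
Orc1: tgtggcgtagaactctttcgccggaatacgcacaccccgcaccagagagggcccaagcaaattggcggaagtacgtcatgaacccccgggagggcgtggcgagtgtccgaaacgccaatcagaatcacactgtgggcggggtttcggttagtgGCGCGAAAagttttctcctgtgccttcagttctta
Mcm5: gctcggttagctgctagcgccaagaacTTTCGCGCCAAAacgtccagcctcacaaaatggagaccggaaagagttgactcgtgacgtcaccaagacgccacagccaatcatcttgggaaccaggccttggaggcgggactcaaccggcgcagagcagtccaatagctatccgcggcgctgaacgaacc
Mcm6: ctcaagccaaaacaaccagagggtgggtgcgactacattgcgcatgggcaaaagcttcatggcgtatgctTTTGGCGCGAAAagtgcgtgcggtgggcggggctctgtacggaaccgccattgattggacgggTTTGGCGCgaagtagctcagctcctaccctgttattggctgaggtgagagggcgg
Rfc3: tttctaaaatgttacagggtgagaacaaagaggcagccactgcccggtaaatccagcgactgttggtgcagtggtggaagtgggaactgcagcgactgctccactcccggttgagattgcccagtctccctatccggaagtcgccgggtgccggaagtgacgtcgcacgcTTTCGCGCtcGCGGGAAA
Rpa2: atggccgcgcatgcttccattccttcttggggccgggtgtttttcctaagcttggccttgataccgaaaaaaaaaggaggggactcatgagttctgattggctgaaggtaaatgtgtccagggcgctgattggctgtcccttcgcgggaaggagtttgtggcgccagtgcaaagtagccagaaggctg

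In Orc1 the motif TTTCGCGC lay on the opposite strand, with its first base on the gene's strand at position -27 from the start. Mcm5 and Mcm6 each held the pair TTTCGCGC and TTTGGCGC overlapping on opposite strands, at -153 and -149 in Mcm5 and, in the other order, at -106 and -110 in Mcm6, and Mcm6 held another TTTGGCGC at -47. In Rfc3, TTTCGCGC at -10 was followed by TTTCCCGC on the opposite strand at 0. Of the 36 members with a window, TTTCGCGC stood in those of Orc1, which fell in all 5 comparisons of day 4 with day 0 described next, of Mcm5, Mcm6, Rfc3 and Lig1, which rose in all 5, and of Mcm7, which rose in 3.

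**Figure D1:**
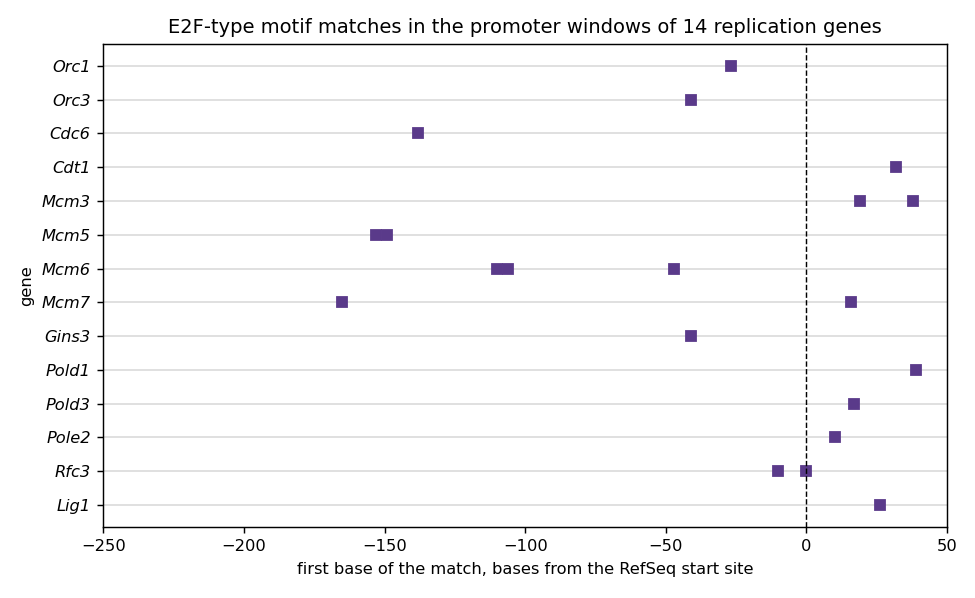
Positions of E2F-type motif matches in the promoter windows of the 14 members that hold one, in bases from the RefSeq start site (dashed line at 0); grey lines are the windows, from 250 before to 50 after. The squares lie between -165 (Mcm7) and 39 (Pold1), and Mcm6 has 3 matches.

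Over differentiation the replication genes as a group were higher. Their summed level per group was 7330 ± 344 CPM (SD, n = 4) in C1, 6913 ± 93.6 CPM in C1M and 6561 ± 138 CPM in C1H, and at day 4 it was 9102 ± 291 CPM in C1T, 8395 ± 423 CPM in C1MV, 8481 ± 221 CPM in C1MDT, 8204 ± 133 CPM in C1HV and 8380 ± 194 CPM in C1HDT. The 20 libraries of day 4 lay between 7818 and 9466 CPM and the 12 of day 0 between 6435 and 7665 CPM, so the days did not overlap. From C1 to C1T 24 of the 44 members rose (54.5%), against 24.4% of all genes tested, and 5 fell (11.4%), against 24.9%. From C1M to C1MV 19 of the 44 members rose (43.2%), against 22% of all genes tested, and 5 fell (11.4%), against 23.9%, and from C1M to C1MDT 22 of the 44 members rose (50%), against 24.5% of all genes tested, and 7 fell (15.9%), against 27.9%. From C1H to C1HV 24 of the 44 members rose (54.5%), against 22% of all genes tested, and 5 fell (11.4%), against 25.1%, and from C1H to C1HDT 24 of the 44 members rose (54.5%), against 26.3% of all genes tested, and 4 fell (9.09%), against 29.4%. The median log2 fold change of the members was 0.33, 0.20, 0.24, 0.23 and 0.38 in these 5 comparisons, beside 0.01, -0.04, -0.06, -0.06 and -0.06 over all genes tested. Rises stood above and decreases below the share for all genes in each of the 5. C1M was the day 0 group of 2 comparisons and C1H of 2, so the 5 are not independent. The count of decreases moved by over 1.5 times in 4 of the 5, with single libraries in 3 of them. In C1T vs C1 3 were called without C1 replicate 1 or 2 or C1T replicate 2 or 3. In C1MV vs C1M 2 were called without C1M replicate 1 or C1MV replicate 1, and 3 without C1MV replicate 2 or 3. In C1MDT vs C1M 3 were called without C1M replicate 1 or C1MDT replicate 1, 2 or 4, and 4 without C1M replicate 2. In C1HDT vs C1H it was 4 or 5 without single libraries and 7 with library totals alone or with 1 CPM required in all libraries, and in C1HV vs C1H it was 4 or 5 throughout. In 3 comparisons that share no library (C1T vs C1, C1MV vs C1M and C1HV vs C1H), 14 members (31.8%) were called higher each time, against 11.8% of all genes tested, 2 (Orc1 and Orc6, 4.55%) lower each time, against 13.5%, and 2 (Mcm3 and Orc2) higher in one and lower in another, against 2.84%.

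**Figure D2:**
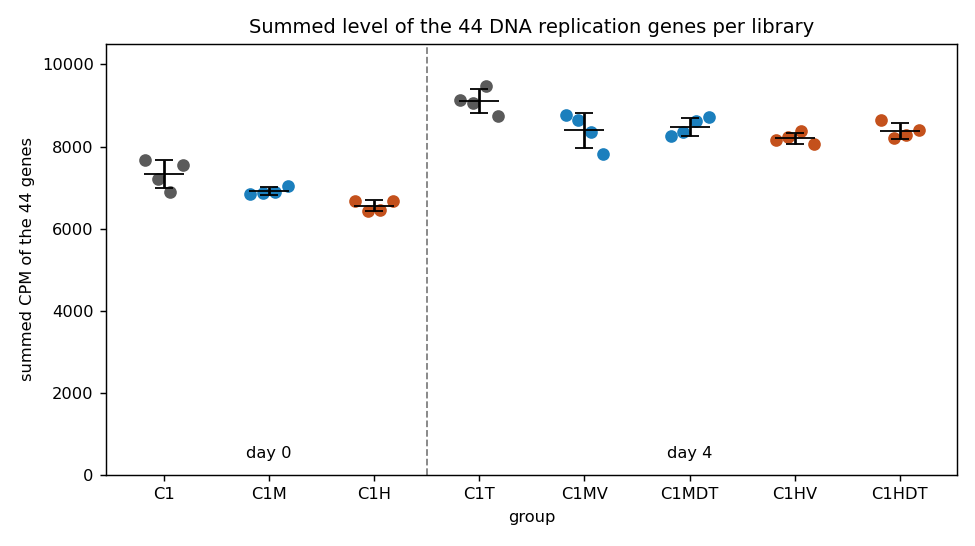
Summed CPM of the 44 DNA replication genes (y axis, from 0) in each library of the 8 groups, with points for libraries, a bar for the group mean and an error bar for the SD (n = 4). The 20 libraries of day 4 lie at 7818 CPM or more, all above the 12 of day 0, and the C1T mean of 9102 CPM is above those of the other day 4 groups.

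**Figure D3:**
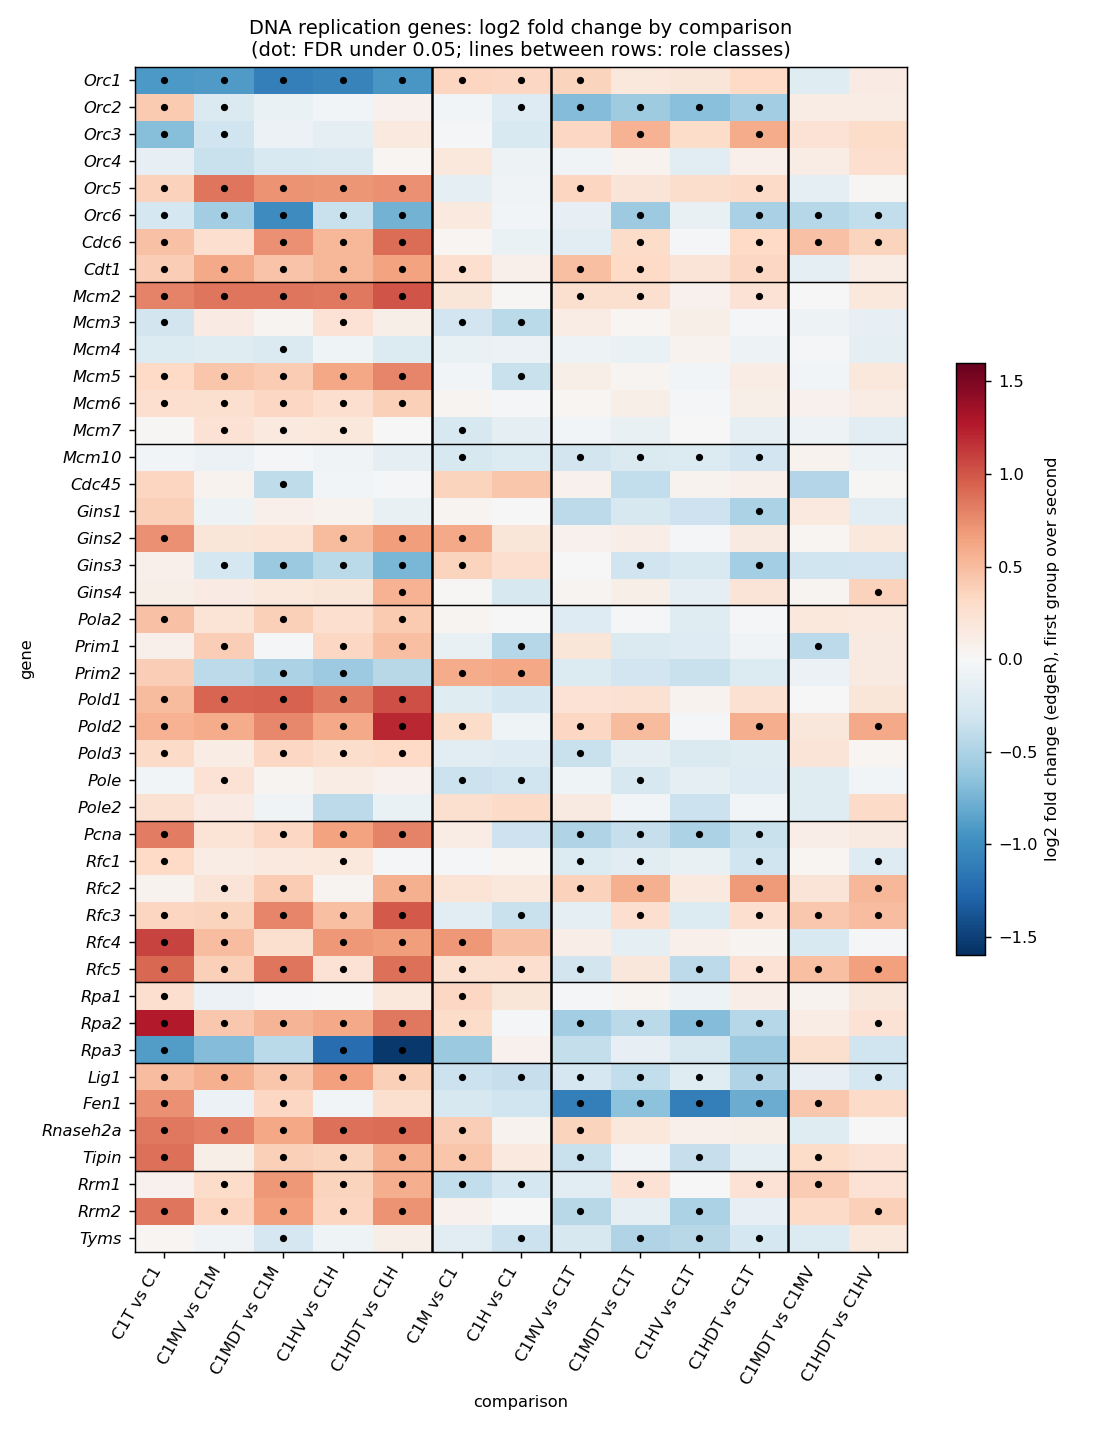
Log2 fold change of each member (rows, grouped by role from origin recognition at the top to deoxynucleotide supply at the bottom) in 13 comparisons (columns), red for higher and blue for lower in the first group, with a dot where the FDR was under 0.05. The 5 columns on the left are differentiation, then come 2 of induction at day 0, 4 against C1T and 2 of inducers kept against withdrawn. Orc1 is blue in all 5 differentiation columns and Mcm2 and Pold1 are red in them.

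Of the 8 factors that recognize origins and load the helicase, 4 rose and 3 fell in C1T vs C1, 2 and 4 in C1MV vs C1M, 3 and 2 in C1MDT vs C1M, 3 and 2 in C1HV vs C1H, and 3 and 2 in C1HDT vs C1H. As shares of the class these were 25 to 50% higher and 25 to 50% lower, beside 22 to 26.3% of all genes tested called higher and 23.9 to 29.4% called lower over the 5 comparisons. Orc1 (ENSMUSG00000028587, chr4:108579423-108614833, plus strand), the largest subunit of ORC, fell in each. Its level at day 0 was 65.02, 55.5, 60.2 and 67.6 CPM in C1, 81.9, 74.8, 74.6 and 84.96 in C1M and 83.1, 79.4, 71.4 and 79.4 in C1H. At day 4 it was 32.6, 24.1, 34.8 and 42.4 in C1T, 47.6, 46.03, 40.3 and 31.4 in C1MV and 39.8, 31.7, 37.96 and 38.9 in C1MDT, and 44.4, 32.9, 39.1 and 31.9 in C1HV and 37.4, 43.9, 49.4 and 34.4 in C1HDT. Every library of day 4 lay below every library of day 0. The log2 fold change was -0.92 ± 0.14 (FDR 2.67e-09) in C1T vs C1, -0.90 and -1.09 from C1M to C1MV and C1MDT, and -1.07 and -0.94 from C1H to C1HV and C1HDT, all past the threshold. Orc6, a small subunit that ORC needs for helicase loading, also fell in each comparison, by -0.28, -0.55, -1.01, -0.36 and -0.76 in the same order. It had 120, 98.5, 108 and 88.3 CPM in C1M and 43.2, 56.8, 49.1 and 55.4 in C1MDT, with no overlap, against 104, 92.8, 87.2 and 89.1 in C1 and 88.2, 73.2, 71.95 and 75.03 in C1T, where the ranges met.

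Orc5, another ORC subunit, went the other way. It had 52.4, 36.2, 46.7 and 56.5 CPM in C1, 35.6, 54.2, 45.9 and 37.1 in C1M and 46.6, 50.5, 47.6 and 40.3 in C1H, and 58.99, 62.01, 65.3 and 63.3 in C1T, 72.5, 95.1, 86.1 and 55.6 in C1MV and 70.3, 74.1, 73.1 and 68.8 in C1MDT, and 66.1, 69.3, 89.4 and 77.4 in C1HV and 73.4, 85.96, 74.5 and 75.6 in C1HDT. Day 4 libraries were the higher ones within each comparison, without overlap. Its log2 fold change was 0.37 ± 0.13 (FDR 0.0131) in C1T vs C1 and 0.86 ± 0.12 (FDR 5.65e-10) in C1MV vs C1M. Cdt1, which brings the MCM ring to ORC, rose by 0.40 to 0.65 over the 5 comparisons, from 109.9, 115, 127 and 135 CPM in C1 to 175, 166, 159 and 139.6 in C1T and from 148, 154, 139 and 146 in C1M to 229.7, 241, 227 and 193 in C1MV. Gm20388, which covers the 3′ end of Cdt1 on the same strand, had 0 counts. Cdc6, its partner in loading, rose in 4 of the 5 (not in C1MV vs C1M, where the log2 fold change was 0.26 ± 0.13 (FDR 0.0876)), and most from 36.4, 39.4, 35.5 and 38.2 CPM in C1H to 82.3, 68.8, 57.4 and 67.7 in C1HDT. Orc3 fell in C1T vs C1 (-0.68 ± 0.13, FDR 4.21e-06), from 64.2, 60.5, 55.5 and 63.2 CPM to 37.9, 36.6, 41.9 and 35.2, without overlap. It fell by -0.32 in C1MV vs C1M and passed no threshold in the other 3. Orc2 rose in C1T vs C1 and fell in C1MV vs C1M (given with the comparisons to C1T), and Orc4 passed the threshold in none. The reads of Orc2 and Orc4 are uncertain where counting took no strand, since Nif3l1 and Acvr2a end over their 3′ ends on the opposite strand, and the strand setting is not given in the sources used here.

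Of the 6 subunits of the MCM ring, the replicative helicase, 3 rose and 1 fell in C1T vs C1, 4 rose in C1MV vs C1M, 4 rose and 1 fell in C1MDT vs C1M, 5 rose in C1HV vs C1H and 3 in C1HDT vs C1H. That was 50 to 83.3% higher and 0 to 16.7% lower, beside the same 22 to 26.3% and 23.9 to 29.4% of all genes. Mcm2 (ENSMUSG00000002870, chr6:88883474-88898780, minus strand) moved most among them. It had 138, 118, 139.6 and 142 CPM in C1, 168, 142, 161 and 144 in C1M and 136, 137, 152 and 121 in C1H, and 255, 239.7, 234 and 202 in C1T, 282, 300.2, 273 and 259 in C1MV and 292, 249.5, 291 and 281 in C1MDT, and 266, 242, 268 and 203 in C1HV and 253, 286, 283 and 280.5 in C1HDT. No library of day 4 overlapped with one of day 0. The log2 fold change ran from 0.79 ± 0.09 (FDR 4.36e-15) in C1T vs C1 to 1.01 ± 0.08 (FDR 4.13e-23) in C1HDT vs C1H. Mcm5 and Mcm6, whose promoter stretches are printed above, also rose in each comparison, Mcm5 by 0.32 to 0.79 and Mcm6 by 0.26 to 0.38. For Mcm5 this was from 379.6, 325, 330.5 and 374 CPM in C1 to 435, 454, 473 and 393 in C1T and from 271, 254, 279 and 299.9 in C1H to 466, 444, 483 and 511 in C1HDT, without overlap in either. The 3′ end of Mcm5 holds stretches of 112 to 141 bases that match 8 other genes at 95.04 to 96.4% identity, so some of its reads may be shared. Mcm6 lay between 176 and 238.9 CPM at day 0 and between 216 and 271 CPM at day 4. The other 3 subunits did not rise in each comparison. Mcm3 fell in C1T vs C1 (-0.29 ± 0.07, FDR 5.61e-05), from 1031, 939.9, 803 and 892 CPM to 754, 734, 779.6 and 722, and rose in C1HV vs C1H (0.23 ± 0.07, FDR 0.00184), from 672, 677, 669 and 708 to 775, 825, 761 and 843. Mcm4 fell in C1MDT vs C1M (-0.23) and in no other. Mcm7, at 1235, 1068, 1019 and 1139 CPM in C1 and 1099, 1088, 1176 and 1141 in C1T, differed by 0.01 ± 0.07 (FDR 0.894) there and rose by 0.24, 0.16 and 0.17 in C1MV, C1MDT and C1HV. Its reads are uncertain, since Cops6 ends over its 3′ end on the opposite strand and the processed pseudogene Gm5487 shares 261 bases of that end at 98.1% identity.

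Of the 6 helicase activators 1 rose in C1T vs C1, 1 fell in C1MV vs C1M and 2 in C1MDT vs C1M, 1 rose and 1 fell in C1HV vs C1H, and 2 rose and 1 fell in C1HDT vs C1H. In either direction that was 16.7, 16.7, 33.3, 33.3 and 50% of them, beside 49.3, 45.9, 52.4, 47 and 55.7% of all genes tested. The GINS subunits went apart. Gins2 rose in C1T vs C1 (0.73 ± 0.12, FDR 4.29e-08), from 44.9, 53.2, 58.1 and 44.1 CPM to 73.9, 85.3, 99.6 and 68.5, in C1HV vs C1H (0.51) and in C1HDT vs C1H (0.67). Gins3 fell from C1M to C1MDT (-0.60 ± 0.11, FDR 3.08e-06) and from C1H to both C1HV (-0.43 ± 0.12, FDR 0.00155) and C1HDT (-0.73 ± 0.12, FDR 2.33e-08), while it differed by 0.08 in C1T vs C1, below the threshold. Its libraries had 77.6, 75.5, 72.97 and 84.96 CPM in C1M against 64.5, 64, 69.8 and 55.6 in C1MV and 57.7, 51.6, 40.5 and 58.5 in C1MDT, and 67.4, 74.5, 75.8 and 74.3 in C1H against 53.2, 68.1, 52.5 and 42.3 in C1HV and 45.2, 36.8, 51.9 and 41.2 in C1HDT. The groups kept in dox and TMP did not overlap with day 0, and C1HV overlapped with C1H. In C1MV vs C1M the decrease of -0.28 ± 0.11 (FDR 0.0369) was lost without any one of 7 of the 8 libraries (all but C1MV replicate 3), at FDRs of 0.0633 to 0.183. Gins4 rose in C1HDT vs C1H (0.56) and Gins1 passed the threshold in none. Mcm10, which is needed to start the assembled helicase, stayed between 118 and 189 CPM in all libraries and passed no threshold in the 5 comparisons. Cdc45, with 25.03, 20.9, 17.9 and 23.5 CPM in C1M and 13.3, 16.6, 18.98 and 15.1 in C1MDT, fell in that comparison (-0.41 ± 0.18, FDR 0.0455) and in no other. Gins2 shares its 3′ end with the opposite-strand gene Gse1, and its reads are uncertain in the same way.

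Among the 8 polymerase and primase genes, 4 rose in C1T vs C1 and in C1MV vs C1M, 4 rose and 1 fell in C1MDT vs C1M and in C1HV vs C1H, and 5 rose in C1HDT vs C1H. With 50 to 62.5% higher and at most 1 of 8 lower, these stand beside the shares of all genes of 22 to 26.3% and 23.9 to 29.4%. Of polymerase δ, which copies the lagging strand, 3 genes were members, without Pold4, and all 3 rose in 4 of the 5 comparisons. Pold1 (ENSMUSG00000038644, chr7:44532746-44548849, minus strand), its catalytic subunit, had 54.1, 63.4, 62.8 and 72.4 CPM in C1, 48.8, 58.5, 55.4 and 56.9 in C1M and 53.8, 61.7, 47.96 and 43.7 in C1H. At day 4 it had 104, 94.5, 81.96 and 73.7 CPM in C1T, 114, 112, 112 and 72.7 in C1MV and 107, 99.5, 118 and 96.99 in C1MDT, and 85.2, 90.9, 105 and 87.1 in C1HV and 116, 105, 103 and 99.4 in C1HDT. All 20 libraries of day 4 were higher than the 12 of day 0. The log2 fold change was 0.50 ± 0.12 (FDR 0.000101) in C1T vs C1, 0.93 ± 0.11 (FDR 3.89e-13) in C1MV vs C1M and 1.03 ± 0.11 (FDR 1.13e-15) in C1HDT vs C1H. Pold2, the accessory subunit, rose by 0.56 in C1T vs C1 and by 1.21 ± 0.11 (FDR 1.32e-20) in C1HDT vs C1H, where 50.7, 51.2, 48.7 and 54.6 CPM in C1H stood against 93.8, 116, 124 and 139.5 in C1HDT. Pold3 rose in 4 of the 5 by 0.28 to 0.33, not in C1MV vs C1M. Of polymerase ε, which copies the leading strand, Pole was at 144, 119, 128 and 164 CPM in C1 and 142, 144, 129 and 125 in C1T and rose only in C1MV vs C1M (0.24 ± 0.09, FDR 0.0306), and Pole2, at 6.45 to 16.4 CPM, passed no threshold. Pola2, the accessory subunit of polymerase α, rose in C1T (0.47), C1MDT (0.39) and C1HDT (0.42). The 2 primase genes went apart. Prim1, the catalytic subunit, rose in C1MV, C1HV and C1HDT by 0.39, 0.34 and 0.49. Prim2, the large subunit, fell in C1MDT vs C1M (-0.51) and C1HV vs C1H (-0.59 ± 0.22, FDR 0.0216), from 18.7, 19.9, 19.8 and 22.3 CPM in C1H to 18.6, 10.2, 15.5 and 7.80 in C1HV. That last call was lost without C1H replicate 4, C1HV replicate 2 or C1HV replicate 4, at FDRs of 0.0614 to 0.166.

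Of the clamp Pcna and the 5 subunits of its loader RFC, 5 of 6 rose in C1T vs C1, 4 in C1MV vs C1M and in C1MDT vs C1M, and 5 in C1HV vs C1H and in C1HDT vs C1H, and none was called lower. The rises made up 66.7 to 83.3% of the class, beside 22 to 26.3% of all genes. Rfc5 (ENSMUSG00000029363, chr5:117378103-117389047, minus strand) had 238, 215, 238 and 275 CPM in C1, 267, 279, 281 and 323 in C1M and 297, 285, 282 and 301 in C1H, and 473, 459.5, 463 and 429 in C1T, 372, 413, 418 and 275 in C1MV and 515, 447, 572 and 541 in C1MDT, and 355, 292, 389.6 and 328 in C1HV and 552, 554, 503 and 544 in C1HDT. The libraries of C1T, C1MDT and C1HDT were all above those of day 0, while C1MV and C1HV reached down into their range. The rise was 0.92 ± 0.09 (FDR 3.47e-16) in C1T vs C1, 0.85 ± 0.08 (FDR 1.62e-15) in C1MDT vs C1M and 0.23 ± 0.08 (FDR 0.0172) in C1HV vs C1H. Rfc4 rose from 19.7, 20.9, 8.82 and 10.5 CPM in C1 to 32.1, 37.04, 24.3 and 33.9 in C1T (1.08 ± 0.19, FDR 3.12e-07), and by 0.49 to 0.70 in C1MV, C1HV and C1HDT. Rfc3, with 2 E2F-type matches in the stretch printed above, rose in all 5, from 58.9, 52.95, 42.1 and 51.7 CPM in C1H to 82.6, 101, 114 and 109.6 in C1HDT (0.98 ± 0.11, FDR 2.71e-14) at the upper end. Rfc2 rose in C1MV, C1MDT and C1HDT by 0.20, 0.41 and 0.57. Rfc1, the large subunit, was at 454, 435, 429 and 399 CPM in C1 and 534, 522, 571 and 509 in C1T and rose there by 0.32 ± 0.07 (FDR 3.88e-05). Pcna rose in C1T by 0.82 ± 0.13 (FDR 3.59e-08), in C1MDT by 0.33, in C1HV by 0.64 and in C1HDT by 0.79, from between 28.2 and 49.6 CPM at day 0 to between 39.6 and 73.4 CPM at day 4. The reads of Rfc2, Rfc4 and Rfc5 are uncertain where counting took no strand, since opposite-strand genes (Lat2, Eif4a2 and Wsb2, with 147, 4374 and 5293 counts over all libraries) cover their 3′ ends, with 400 bases of the end of Rfc5 in Wsb2 transcripts and 186 of that of Rfc4 in those of Eif4a2.

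RPA, which covers single-stranded DNA at the fork, showed the largest single rise of C1T vs C1 and an opposite change in its smallest subunit. Rpa2 (ENSMUSG00000028884, chr4:132768332-132778752, plus strand) had 305, 305, 329 and 366 CPM in C1, 373, 397, 396 and 429 in C1M and 323, 296, 318 and 337 in C1H. At day 4 it had 800.5, 817, 808 and 710.5 CPM in C1T, 607, 566, 491 and 474 in C1MV and 608, 586, 561 and 573 in C1MDT, and 536, 449, 512 and 439 in C1HV and 554, 597, 545 and 586 in C1HDT. C1T stood above all other groups, and every day 4 library was above every day 0 library. The log2 fold change was 1.27 ± 0.07 (FDR 1.07e-35) in C1T vs C1, or 2.41-fold, against 0.43, 0.54, 0.61 and 0.84 in the other 4. Rpa1, the large subunit, rose in C1T vs C1 alone (0.26 ± 0.10, FDR 0.0169). Rpa3 was at a few CPM, with 9.23, 10.8, 7.78 and 5.75 in C1 and 5.28, 3.33, 4.29 and 5.22 in C1T, 6.47, 11.5, 9.52 and 7.56 in C1H, 2.58, 6.25, 2.58 and 3.90 in C1HV and 4.42, 1.43, 2.51 and 3.06 in C1HDT. Day 4 libraries were the lower ones in each of these pairs, close to the floor of 0.822 to 2.19 CPM. Rpa3 was not called lower in C1MV vs C1M or C1MDT vs C1M. It fell by -0.90 ± 0.35 (FDR 0.027) in C1T vs C1, a call lost without C1 replicate 1 or 2 or C1T replicate 2 or 3 (FDR 0.0559 to 0.0987), by -1.23 ± 0.36 (FDR 0.00239) in C1HV vs C1H and by -1.55 ± 0.34 (FDR 4.54e-05) in C1HDT vs C1H.

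The 4 genes of Okazaki fragment processing and fork protection were called higher in C1T vs C1 and in C1MDT vs C1M, with 2 of 4 in C1MV vs C1M and 3 of 4 in C1HV vs C1H and C1HDT vs C1H, or 50 to 100% of them beside 22 to 26.3% of all genes. Lig1, the ligase that seals the fragments, had 1232, 1331, 1134 and 1267 CPM in C1, 931, 954, 1018 and 1006 in C1M and 998, 879, 906 and 1067 in C1H, and 1696, 1683, 1852 and 1761 in C1T, 1517, 1469, 1481 and 1337 in C1MV and 1179, 1390, 1316 and 1424 in C1MDT, and 1347, 1629, 1569 and 1545 in C1HV and 1375, 1235, 1145 and 1264 in C1HDT. It rose by 0.38 to 0.66 over the 5 comparisons, each without overlap. Rnaseh2a, the catalytic subunit of the nuclease that removes RNA primers, rose by 0.62 to 0.89, for example from 38.5, 39.02, 47.96 and 31.1 CPM in C1H to 76.4, 63.6, 83.8 and 63.1 in C1HV (0.88 ± 0.12, FDR 2.50e-10). Tipin, which with Timeless steadies stalled forks, rose from 78.9, 65.1, 64.3 and 60.9 CPM in C1 to 127, 124, 127 and 121 in C1T (0.89 ± 0.10, FDR 2.11e-13) and by 0.36 to 0.59 in C1MDT, C1HV and C1HDT. Fen1, the flap nuclease, rose in C1T (0.73 ± 0.13, FDR 3.84e-07) and C1MDT (0.33) and is given in full below. Of the 3 genes of deoxynucleotide supply, Rrm2, the regulated subunit of ribonucleotide reductase, rose in all 5 by 0.34 to 0.86, from between 25.98 and 45.8 CPM at day 0 to between 33.8 and 73.4 CPM at day 4. Rrm1, the large subunit, rose in the 4 groups with earlier induction by 0.29 to 0.69 but not in C1T vs C1 (0.07 ± 0.10, FDR 0.594). Its libraries had 159, 129.6, 115 and 132 CPM in C1 and 129.5, 132, 149 and 155 in C1T, against 117, 95.3, 101 and 97.8 in C1M and 159, 167, 177 and 158 in C1MDT. Tyms, thymidylate synthase, fell in C1MDT vs C1M (-0.27) and passed no threshold in the other 4.

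**Figure D4:**
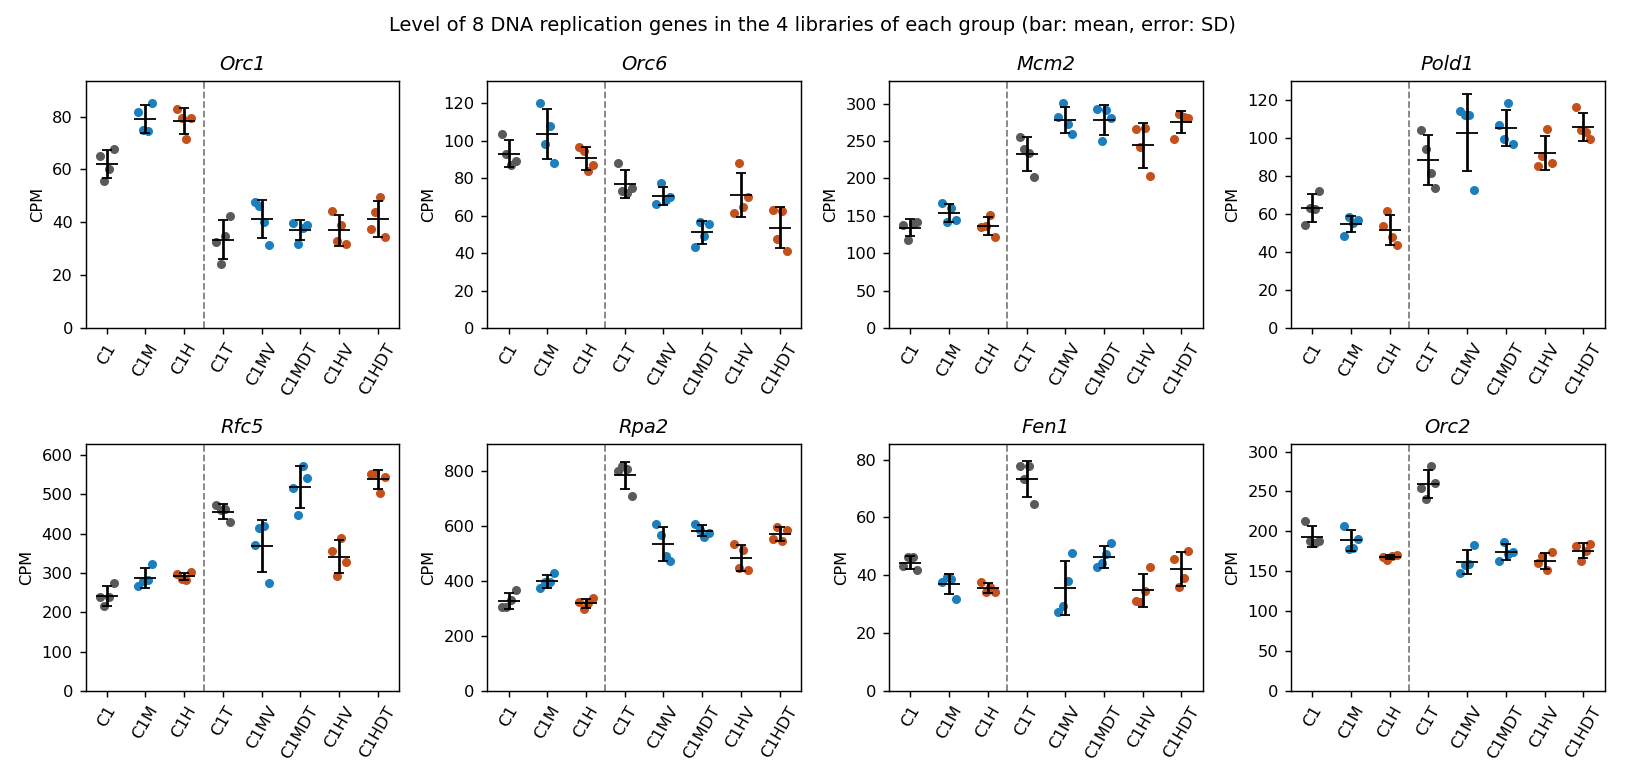
CPM (y axes, from 0) of 8 members in every library of the 8 groups (x axis), with a bar for the mean and an error bar for the SD (n = 4) and a dashed line between day 0 and day 4. Orc1 lies at 49.4 CPM or less in all day 4 libraries, Mcm2 and Pold1 are higher at day 4 in every group, and Rpa2, Fen1 and Orc2 are highest in C1T.

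At day 0 the sorted fractions were compared with uninduced C1 cells, to see what differed with exogenous β-catenin in the pluripotent state. C1M and C1H also differed from C1 by the dox and by the sort, on mCherry against living cells alone for C1, and the parts of these cannot be told apart. Library and marker values differed too. Reads that aligned to several places made up 53.1 to 54.1% in C1M against 49.4 to 51.3% in C1 and 50.7 to 51.3% in C1H, and reads outside genes 22.1 to 23.1% in C1H against 19.6 to 20.9% in C1 and 19.7 to 21.2% in C1M. Summed ES cell markers were at 5325 to 5555 CPM in C1, 4004 to 4284 CPM in C1M and 4052 to 4320 CPM in C1H, summed endoderm markers at 10.5 to 21.8, 22.7 to 39.4 and 26.9 to 32.8 CPM, and summed mesoderm markers at 54.5 to 60.7, 32.6 to 40.01 and 37.7 to 47.03 CPM. Summed fibroblast markers overlapped between C1 and both fractions, although the mean of one of them, Thy1, was 0.72 CPM in C1, 9.86 in C1M and 10.8 in C1H. The part of these differences in the results was not tested. In C1M vs C1 12 of the 44 members rose (27.3%), against 14.3% of all genes tested, and 6 fell (13.6%), against 12%. The 12 fell to 6 without C1M replicate 2 and to 7 without C1 replicate 2, and to 8 without C1 replicate 3 or C1M replicate 4. In C1H vs C1 3 of the 44 members rose (6.82%), against 13.8% of all genes tested, and 9 fell (20.5%), against 12.1%. The 3 fell to 0 without C1H replicate 4 and to 1 without C1 replicate 2 or C1H replicate 1 or 2. Both comparisons used the same C1 libraries. The second split turned with the scaling, since with library totals alone 8 members were higher and 5 lower in C1H, so that no direction is given for the class. Rfc4 rose in C1M (0.69 ± 0.19, FDR 0.00273), to 22.9, 25.5, 25.1 and 23.5 CPM from the values of C1 given above, which spread from 8.82 to 20.9 CPM. This call was lost without C1 replicate 3 (FDR 0.0513). Gins2 rose to 71.7, 72.7, 82.1 and 75.5 CPM in C1M (0.60 ± 0.12, FDR 1.15e-05) against 59.9, 54, 57.9 and 55.5 in C1H (0.19, below the threshold). Tipin rose to 105, 84.4, 91.5 and 87.03 CPM in C1M (0.44 ± 0.10, FDR 0.000455), each library above those of C1. Orc1 and Rfc5 were higher in both fractions, Orc1 by 0.34 in C1M and 0.33 ± 0.12 (FDR 0.0251) in C1H and Rfc5 by 0.25 and 0.27 ± 0.09 (FDR 0.0128). In C1H the call of Orc1 was lost without any library but C1 replicate 4 and C1H replicate 3 (FDR 0.0508 to 0.102) and that of Rfc5 without C1 replicate 1 or 2 or C1H replicate 1 or 4 (FDR 0.0539 to 0.0891). Prim2, at 17.2, 10.8, 15.1 and 8.63 CPM in C1 and 23.8, 24.8, 13.4 and 17.3 in C1M, was higher by 0.59 in C1M and 0.62 ± 0.22 (FDR 0.0239) in C1H, where the call was lost without C1 replicate 2 or 4 or C1H replicate 2 or 4 (FDR 0.0501 to 0.144).

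Lig1 and Mcm3 were lower in both fractions. Lig1 differed by -0.34 ± 0.07 (FDR 1.17e-05) in C1M and -0.37 ± 0.07 (FDR 2.87e-06) in C1H, and Mcm3 by -0.31 ± 0.07 (FDR 7.63e-05) and -0.43 ± 0.07 (FDR 2.86e-08). No library of C1M or C1H reached the lowest C1 library of either gene. Pole and Rrm1 were also lower in both, by -0.34 and -0.31 for Pole and -0.39 and -0.29 for Rrm1. Mcm10 fell in C1M (-0.25 ± 0.09, FDR 0.0189), to 142, 144, 149.5 and 146 CPM from 189, 161, 166 and 176 in C1, a call lost with library totals alone (FDR 0.0889) or without C1 replicate 1 (FDR 0.0618). Prim1 fell in C1H (-0.46 ± 0.12, FDR 0.00149), to 45.96, 45.6, 47.6 and 43.3 CPM from 60.4, 60.5, 67.5 and 62.8 in C1, without overlap. Directly between the fractions, C1H vs C1M, 0 of the 44 members rose (0%), against 0.713% of all genes tested, and 3 fell (6.82%), against 1.06%. The 3 were Gins2 (-0.41 ± 0.11, FDR 0.0224), Rpa2 (-0.32 ± 0.07, FDR 0.0037) and Mcm5 (-0.32 ± 0.07, FDR 0.00491). In each the 4 libraries of C1H lay below the 4 of C1M, with 323, 296, 318 and 337 CPM against 373, 397, 396 and 429 for Rpa2 and 271, 254, 279 and 299.9 against 328, 372, 339 and 336 for Mcm5. Gins2 was lost without C1M replicate 2 or 3 or C1H replicate 2 or 4 (FDR 0.0502 to 0.104) and Mcm5 without C1M replicate 2 or C1H replicate 2 (FDR 0.0587 and 0.0679). Without C1M replicate 2, 1 member was left, and a fit of C1H and C1M alone called 5, all lower.

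At day 4 each group with earlier induction was compared with C1T, which had never received dox and was not sorted on mCherry. The parts of β-catenin, dox and the sort cannot be told apart here either. C1MV and C1HV were in DMSO and so also differed from C1T by TMP during differentiation, while C1MDT and C1HDT were in TMP like C1T. These 4 comparisons share the 4 libraries of C1T. Library and marker values also differed, with mitochondrial reads at 1.59 to 1.82% in C1T and 0.533 to 0.971% in the other day 4 groups, and summed endoderm markers as given above. Reads outside genes made up 14.4 to 14.8% in C1T and 10.1 to 11.5% in C1MDT and C1HDT, while C1MV and C1HV, at 12.46 to 15.7%, overlapped with C1T. Summed ES cell markers lay between 788 and 924 CPM in C1T, above them between 1076 and 1442 CPM in C1MV and C1HV, and below them between 495 and 670.4 CPM in C1MDT and C1HDT. Of the neuroectoderm markers, mean Sox1 was 92.3 CPM in C1T, 165 in C1MDT, 143 in C1HDT, 89.3 in C1MV and 93.3 in C1HV. Pax6 was highest in C1T, at 24.0 CPM against 12.1 to 15.9 in the other day 4 groups. Their part in these results was not tested. In C1MV vs C1T 7 of the 44 members rose (15.9%), against 15.3% of all genes tested, and 11 fell (25%), against 14.9%. In C1MDT vs C1T 8 of the 44 members rose (18.2%), against 16.9% of all genes tested, and 11 fell (25%), against 16.5%. There 6 were lower without C1T replicate 2, and 7 without C1T replicate 1 or C1MDT replicate 3. These shares were at or below the 16.5% of all genes in the fit with every library, and the share in the reduced fits is not given. In C1HV vs C1T 0 of the 44 members rose (0%), against 13.7% of all genes tested, and 10 fell (22.7%), against 14.3%. Of the rises there were 3 without C1HV replicate 2, 2 without C1HV replicate 1, 1 without C1T replicate 1 or 2 or C1HV replicate 4, and 2 with only the groups compared or with 1 CPM required in all libraries. In C1HDT vs C1T 10 of the 44 members rose (22.7%), against 17.4% of all genes tested, and 11 fell (25%), against 16.1%. With library totals alone the splits were 10 higher and 10 lower, 10 and 7, and 5 and 8 in the first 3, and with DESeq2 they were 5 and 11 in C1MDT and 6 and 12 in C1HDT. The median log2 fold change of the members was -0.06, -0.05, -0.14 and -0.03 in the same order. Fen1 (ENSMUSG00000024742, chr19:10199132-10204169, minus strand) was the member that fell most in each. It had 77.7, 73.2, 77.7 and 64.6 CPM in C1T, 27.4, 29.2, 38.1 and 47.8 in C1MV and 42.7, 44.2, 47.2 and 51.2 in C1MDT, and 30.99, 30.7, 34.4 and 42.9 in C1HV and 45.6, 35.8, 38.9 and 48.3 in C1HDT, and at day 0 43.2, 46.4, 46.2 and 41.7 in C1, 37.8, 39.4, 38.8 and 31.8 in C1M and 37.8, 34.1, 35.9 and 34.02 in C1H. The C1T libraries stood above all others. The differences from C1T were -1.09 ± 0.13 (FDR 2.53e-12), -0.66 ± 0.12 (FDR 3.76e-06), -1.09 ± 0.14 (FDR 9.56e-12) and -0.79 ± 0.13 (FDR 4.61e-08). The antisense gene Gm10143 matches 343 bases of the 3′ end of Fen1 in full, so reads of the pair could be told apart only by strand.

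Orc2, an ORC subunit, and Rpa2 were also lower than in C1T in all 4 groups. Orc2 (ENSMUSG00000026037, chr1:58462771-58505109, minus strand) had 255, 240.1, 282 and 260.3 CPM in C1T, 148, 157, 159 and 183 in C1MV and 163, 187, 172 and 174 in C1MDT, and 160.1, 169, 151 and 174 in C1HV and 182, 162, 176 and 184 in C1HDT, and at day 0 213, 188, 185 and 187 in C1 and 207, 178, 178 and 190.5 in C1M. The C1T libraries, from 240.1 CPM up, were above every other library. The differences were -0.69 ± 0.08 (FDR 7.07e-13), -0.57, -0.67 and -0.56, and those of Rpa2, from the values above, -0.55, -0.43, -0.70 ± 0.07 (FDR 8.15e-16) and -0.46. Pcna, Lig1 and Mcm10 were called lower in each as well, Pcna by -0.36 to -0.51, Lig1 by -0.20 to -0.48 and Mcm10 by -0.22 to -0.31. Orc6 was lower in C1MDT (-0.58 ± 0.12, FDR 1.63e-05) and C1HDT (-0.52), at 88.2, 73.2, 71.95 and 75.03 CPM in C1T, 43.2, 56.8, 49.1 and 55.4 in C1MDT and 63.2, 47.8, 62.4 and 41.2 in C1HDT, and Gins3 in the same groups (-0.32 and -0.54 ± 0.12 (FDR 0.000159)), and kept against withdrawn it passed no threshold (-0.32 ± 0.12 (FDR 0.0596) and -0.30 ± 0.13 (FDR 0.094)).

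Rfc2, whose reads are uncertain as given above, was higher than in C1T in 3 groups. It had 157, 164, 168 and 146 CPM in C1T, 212, 228, 204 and 171 in C1MV, 229, 214, 253 and 248 in C1MDT, 195, 158, 172 and 183 in C1HV and a mean of 256 ± 13.8 (SD, n = 4) in C1HDT, and differed by 0.37 ± 0.09 (FDR 0.000396) in C1MV, 0.57 ± 0.09 (FDR 1.43e-08) in C1MDT and 0.68 ± 0.09 (FDR 1.83e-11) in C1HDT, without overlap. In C1HV, where its libraries overlapped with C1T, the difference was 0.15 ± 0.09 (FDR 0.218). Orc3 was higher in C1MDT (0.55 ± 0.13, FDR 0.000245) and C1HDT (0.59 ± 0.13, FDR 9.12e-05), with 47.3, 61.9, 61.4 and 50.6 CPM in C1MDT and 59.8, 62.6, 55.3 and 52.1 CPM in C1HDT against the values of C1T given above. Pold2 was higher in C1MV (0.33), C1MDT (0.51 ± 0.10, FDR 2.66e-05) and C1HDT (0.58), with 70.98, 94.5, 82.4 and 65.9 CPM in C1T and 127, 108, 111 and 108 in C1MDT. Cdt1 was higher in C1MV (0.48 ± 0.09, FDR 1.18e-06), and by 0.32 and 0.33 in C1MDT and C1HDT. Rnaseh2a was higher in C1MV (0.36 ± 0.11, FDR 0.00871), with 79.8, 81.96, 108 and 77.02 CPM against 69.1, 64.9, 69.6 and 70.5 in C1T, a call lost without C1MV replicate 3 (FDR 0.152). Orc5 was higher in C1HDT (0.31 ± 0.12, FDR 0.0346), a call lost with DESeq2 (FDR 0.0742) and without C1T replicate 1, 2 or 3 or C1HDT replicate 2 (FDR 0.0525 to 0.112).

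Whether the change over differentiation differed after induction was tested as the change from day 0 to day 4 in the induced cells minus that in C1 cells. This difference passed the threshold for 13 of 44 (29.5%, against 22.5% of all genes) in C1MV and 16 of 44 (36.4%, against 24.4% of all genes) in C1MDT, and 11 of 44 (25%, against 21.9% of all genes) in C1HV and 16 of 44 (36.4%, against 25.2% of all genes) in C1HDT. All 4 tests share C1 and C1T, and those of C1MV and C1HV also include the difference in TMP during differentiation. A level that already differed at day 0 enters each test. Of the called members, 3 changed more upward and 10 more downward than in C1 in C1MV, 6 and 10 in C1MDT, 3 and 8 in C1HV, and 9 and 7 in C1HDT. Of all genes tested, 11% changed more upward and 11.6% more downward in C1MV, then 11.8% changed more upward and 12.6% more downward in C1MDT, then 10.7% changed more upward and 11.2% more downward in C1HV, and 12.7% changed more upward and 12.6% more downward in C1HDT. The upward calls of C1MV were 5 without C1 replicate 2 and 1 without C1 replicate 4, C1M replicate 1 or C1MV replicate 3 or with DESeq2, and its downward calls 6 without C1M replicate 1. The upward calls of C1MDT fell to 3 without C1 replicate 4, the downward calls of C1HV to 5 without C1HV replicate 4, and those of C1HDT to 3 without C1HDT replicate 2. For Rpa2 the difference was -0.84 ± 0.10 (FDR 6.66e-12) in C1MV and -0.72, -0.66 and -0.43 in the other 3, all past the threshold, and its level rose in each group. For Fen1 it was -0.83 ± 0.19 (FDR 0.000291) in C1MV and -0.77 ± 0.19 (FDR 0.00107) in C1HV, where Fen1 changed by -0.10 and -0.04 against 0.73 in C1. For Orc2 all 4 passed, from -0.35 in C1HDT to -0.65 in C1MV. Of loader genes with uncertain reads, Rfc5 differed by -0.68 ± 0.12 (FDR 4.22e-06) in C1HV and Rfc4 by -0.83 ± 0.25 (FDR 0.00749) in C1MDT, the latter lost without C1 replicate 3 (FDR 0.0628). Mcm3 went the other way in all 4 groups, by 0.34 to 0.53, and was called lower over differentiation in C1T vs C1 alone. At day 0 it was already lower than in C1, by -0.31 in C1M and -0.43 in C1H. No gene of the MCM ring was called in C1HV vs C1T. Orc3 and Pold2 were the members with the largest upward difference in C1HDT (0.83 ± 0.18 (FDR 9.07e-05) and 0.65), where Gins3 had one of -0.81 ± 0.17 (FDR 6.01e-05).

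For Prim2 the difference was -0.81, -0.90, -0.98 and -0.84 in C1MV, C1MDT, C1HV and C1HDT, at FDRs of 0.04995, 0.0222, 0.0169 and 0.034. In C1HV vs C1T no polymerase or primase member was called. At day 0 Prim2 was already higher than in C1, by 0.59 in C1M and 0.62 in C1H. Its level was low, with 17.2, 10.8, 15.1 and 8.63 CPM in C1, 15.8, 18.3, 19.5 and 14.3 in C1T, 23.8, 24.8, 13.4 and 17.3 in C1M and 10.4, 12.9, 16.2 and 14.4 in C1MDT, and C1 overlapped with C1T. The calls depended on single libraries. In C1MV it was lost without any one of 11 of the 16 libraries (all but C1 replicates 1 and 3, C1M replicate 3, C1T replicate 4 and C1MV replicate 4), at FDRs of 0.0507 to 0.156. It was also lost with only the groups compared (FDR 0.0563), with DESeq2 (FDR 0.0801) and under a replicate block (FDR 0.0525). In C1MDT it was lost without C1 replicate 2 or 4, C1M replicate 1 or 2, C1T replicate 2 or 3 or C1MDT replicate 1 (FDR 0.0558 to 0.0849), in C1HV without C1 replicate 4 or C1HV replicate 2 or 4 (0.0528 to 0.0694), and in C1HDT without C1 replicate 2 or 4, C1H replicate 4, C1T replicate 2 or 3 or C1HDT replicate 1 or 2 (0.0716 to 0.111). For Cdc45 in C1MDT (-0.75 ± 0.26, FDR 0.0254) it was lost without any one of 8 of the 16 libraries, namely C1 replicates 1, 2 and 4, C1M replicates 1 and 4, C1T replicate 4 and C1MDT replicates 1 and 4 (FDR 0.0571 to 0.0996). Among the 36 members with a promoter window, those with an E2F-type match had a median difference between the changes of 0.05, 0.07, 0.13 and 0.18 on the log2 scale (n = 14) in C1MV, C1MDT, C1HV and C1HDT, and those without one -0.24, -0.19, -0.16 and -0.07 (n = 22). This split was looked at after the values were known and carries no test. Over differentiation itself the medians of the 2 sets were 0.29 and 0.39 in C1T vs C1 and 0.25 and 0.22 in C1MV vs C1M.

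**Figure D5:**
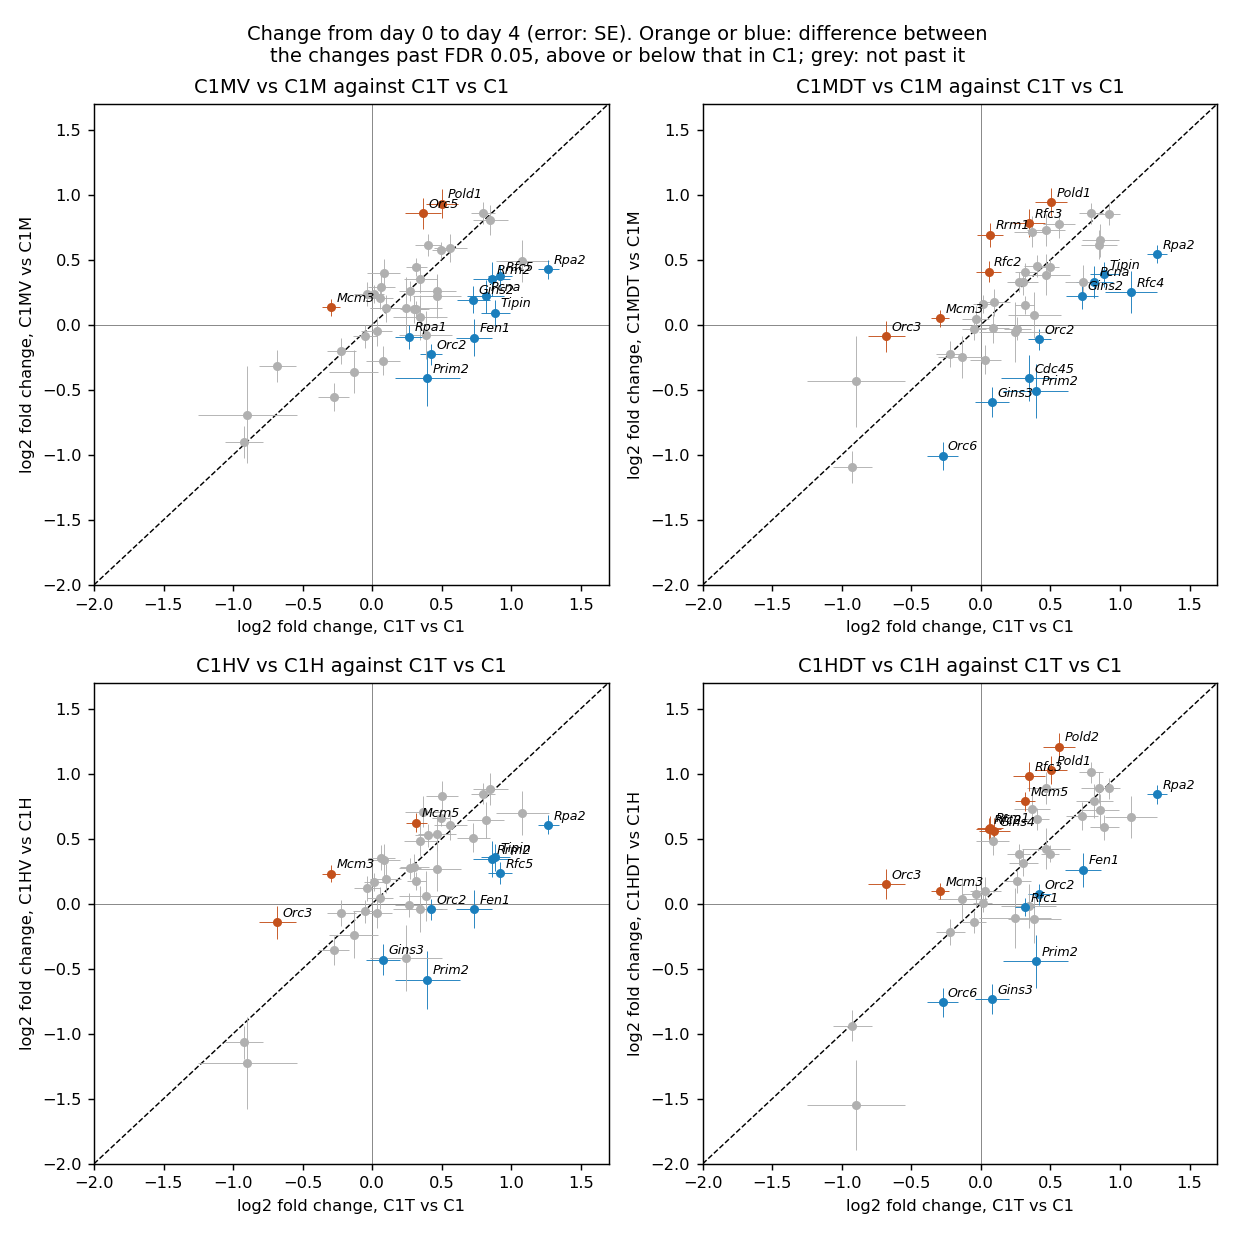
Log2 fold change from day 0 to day 4 (± SE) of each member in induced cells (y axis) against that in C1 cells (C1T vs C1, x axis), one panel for each day 4 group, with a dashed line where both are equal. Members whose difference passed an FDR of 0.05 are labelled, blue below and orange above the line, and Rpa2 and Orc2 are blue and Mcm3 orange in all 4 panels.

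Keeping dox and TMP through differentiation was compared with withdrawing them within each sorted fraction. Library and marker values differed as well. Reads outside genes made up 12.49 to 15.7% in C1MV against 10.8 to 11.2% in C1MDT, and 12.46 to 14.5% in C1HV against 10.1 to 11.5% in C1HDT. Summed ES cell markers were at 1136 to 1442 CPM in C1MV against 536 to 642 CPM in C1MDT, and at 1076 to 1335 CPM in C1HV against 495 to 670.4 CPM in C1HDT. Summed endoderm markers were at 243 to 396 CPM against 542.5 to 667 CPM and at 343 to 379.7 CPM against 540.2 to 658.5 CPM, and summed neuroectoderm markers at 119 to 133 CPM against 214 to 225 CPM and at 119 to 146 CPM against 177 to 219 CPM. None of these ranges overlapped. Of the trophoblast markers, mean Tfap2c was 90.1 and 81.65 CPM in C1MV and C1HV against 41.6 and 39.7 in C1MDT and C1HDT. Krt8 went the other way, at 13.6 and 11.8 against 19.9 and 17.3 CPM. The part of all these differences in the results was not tested. In C1MDT vs C1MV 6 of the 44 members rose (13.6%), against 6.64% of all genes tested, and 2 fell (4.55%), against 5.95%. In C1HDT vs C1HV 8 of the 44 members rose (18.2%), against 9.1% of all genes tested, and 3 fell (6.82%), against 6.88%. The latter split was 5 higher and 6 lower with library totals alone, and without C1HV replicate 2 or C1HDT replicate 4 it held 5 or 7 calls in all, of them 4 or 5 higher. In C1MDT vs C1MV 4 members were lower without C1MV replicate 4. Of the clamp and its loader, 2 and 3 of 6 genes were higher. Rfc5, from the values given above and with uncertain reads, differed by 0.48 ± 0.08 (FDR 4.82e-06) in the middle and 0.65 ± 0.08 (FDR 1.46e-09) in the high fraction, without overlap in either. Rfc3 had 79.8, 89.8, 67.2 and 59.9 CPM in C1MV and 120.5, 95.8, 100.5 and 91.8 in C1MDT, and 82.1, 70.98, 64.5 and 70.9 in C1HV and 82.6, 101, 114 and 109.6 in C1HDT, and was higher by 0.43 ± 0.11 (FDR 0.00216) and 0.50. Cdc6 was higher in both, from 50.8, 53.9, 50.5 and 38.5 CPM in C1MV to 63.4, 71.9, 74.2 and 61.6 in C1MDT (0.47 ± 0.12, FDR 0.00334) and by 0.36 in the high fraction. In the high fraction alone Pold2 (0.60 ± 0.11, FDR 2.91e-06) and Rfc2 (0.53 ± 0.09, FDR 4.14e-07) were called, with 88.3, 77.8, 65.8 and 81.3 CPM of Pold2 in C1HV and the values of C1HDT above. Orc6 was lower where the inducers were kept, by -0.45 ± 0.12 (FDR 0.00262) and -0.40, with 66.1, 77.5, 68.7 and 69.9 CPM in C1MV and 61.5, 88.02, 64.9 and 70.2 in C1HV. Prim1 fell in C1MDT (-0.42 ± 0.11, FDR 0.00382), from 81.8, 69.2, 69.02 and 86.3 CPM in C1MV to 50.7, 63.8, 53.03 and 57.8. Rfc1 fell in C1HDT (-0.20 ± 0.07, FDR 0.0305), from 484, 508, 488 and 492 CPM to 429, 433, 410 and 444, a call lost without C1HV replicate 2 (FDR 0.0708) or C1HDT replicate 3 (FDR 0.0581). Whether these effects differed between the fractions was not tested.

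The sorted fraction made no called difference at day 4. With edgeR 0 of the 44 members were called in C1HV vs C1MV (0.00654% of all genes tested, 1 gene) and 0 in C1HDT vs C1MDT (0% of all genes), while 7 and 1 members had an unadjusted p under 0.05, and DESeq2 also called 0 in both. The estimated log2 fold changes of the members ran from -0.49 to 0.17 in the first and from -0.45 to 0.48 in the second, with SEs of 0.07 for Rpa2 and 0.15 for Fen1 in C1HV vs C1MV. For Fen1 the estimate in C1HV vs C1MV was -0.0039 ± 0.15, at an FDR of 1.

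Other genes of the pathway stood beside the members. Of 30 further replication factors, 7 and 11 were called higher and lower in C1T vs C1, 7 and 7 in C1MV vs C1M, 8 and 12 in C1MDT vs C1M, 7 and 5 in C1HV vs C1H and 10 and 10 in C1HDT vs C1H. Ticrr, which recruits Cdc45 to origins, fell, with log2 fold changes of -2.15 ± 0.11 (FDR 2.99e-39) in C1T vs C1 and -2.72 in C1MDT vs C1M, and the clamp loader factor Chtf8 rose by 1.15 and 1.00. Of 19 further genes of nucleotide synthesis, 13 and 3 were higher and lower in C1T vs C1, 5 and 4 in C1MV vs C1M, 5 and 3 in C1MDT vs C1M, 6 and 2 in C1HV vs C1H and 9 and 3 in C1HDT vs C1H. In the first and second of these, Cad, the enzyme that starts pyrimidine synthesis, was at 1.46 ± 0.09 (FDR 1.66e-32) and 0.61, and Rrm2b, a small subunit of ribonucleotide reductase, at -1.92 and -2.30. Of 9 genes of chromatin assembly in S phase the counts were 4 and 3 in C1T vs C1, 1 and 2 in C1MV vs C1M, 3 and 2 in C1MDT vs C1M, 2 and 1 in C1HV vs C1H and 2 and 3 in C1HDT vs C1H, and 1 and 4 in C1MV vs C1T, with Uhrf1 at -0.95 in C1T vs C1 and -0.58 in C1MV vs C1T. Of 18 genes of the E2F and RB families the counts were 8 and 4 in C1T vs C1, 1 and 5 in C1MV vs C1M, 4 and 5 in C1MDT vs C1M, 4 and 5 in C1HV vs C1H and 4 and 6 in C1HDT vs C1H. E2f2, an activating E2F, rose by 1.34 ± 0.21 (FDR 2.54e-08) in C1T vs C1 and was lower than in C1T by -2.13 ± 0.23 (FDR 8.47e-15) in C1MV and -1.73 in C1MDT, and -1.77 in C1HV and -1.78 in C1HDT, comparisons that share C1T. Against C1T the counts of these families were 1 and 5 in C1MV and 1 and 6 in C1MDT, C1HV and C1HDT. Those of the further replication factors were 1 and 8, 2 and 12, 1 and 7, and 2 and 12 in C1MV, C1MDT, C1HV and C1HDT. In the same order those of nucleotide synthesis were 1 and 9, 1 and 8, 1 and 11, and 2 and 5. Those of chromatin assembly were 1 and 5 in C1MDT, 0 and 4 in C1HV, and 1 and 5 in C1HDT. Of 20 mitotic genes, 13 and 0 were higher and lower in C1T vs C1, 13 and 0 in C1MV vs C1M, 10 and 1 in C1MDT vs C1M, 14 and 0 in C1HV vs C1H and 11 and 2 in C1HDT vs C1H, for example Cdc20 at 1.46 in the first. Against C1T they were 2 and 5 in C1MV, 4 and 7 in C1MDT, then 5 and 4 in C1HV, and 5 and 8 in C1HDT. Of 10 S-phase checkpoint genes, 2 and 0 were higher and lower in C1T vs C1, 0 and 1 in C1MV vs C1M, 1 and 0 in C1MDT vs C1M, 2 and 0 in C1HV vs C1H and 1 and 2 in C1HDT vs C1H, and against C1T 0 and 1 in C1HV and 0 and 2 in each of the other 3. Beside these counts, the shares of all genes tested called higher and lower were 24.4 and 24.9% in C1T vs C1, 22 and 23.9% in C1MV vs C1M, 24.5 and 27.9% in C1MDT vs C1M, 22 and 25.1% in C1HV vs C1H and 26.3 and 29.4% in C1HDT vs C1H, and against C1T 15.3 and 14.9% in C1MV, then 16.9 and 16.5% in C1MDT, then 13.7 and 14.3% in C1HV, and 17.4 and 16.1% in C1HDT. Of the further replication factors 23.3 to 33.3% were higher and 16.7 to 40% lower over the 5 differentiation comparisons, of the nucleotide synthesis genes 26.3 to 68.4% and 10.5 to 21.1%, of the chromatin assembly genes 11.1 to 44.4% and 11.1 to 33.3%, of the E2F and RB families 5.56 to 44.4% and 22.2 to 33.3%, of the mitotic genes 50 to 70% and 0 to 10%, and of the checkpoint genes 0 to 20% and 0 to 20%.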

How the data were processed

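RNA from 32 cultures in 8 groups of 4 was sequenced with QuantSeq, and each library came as a table of whole-number counts per Ensembl gene, not normalized, which the authors deposited after trimming with bbduk, alignment to mm10 with STAR and counting of uniquely aligned reads with htseq-count. The strand setting of the counting is not given in the sources used here. Groups and replicate numbers were read from the labels, and every library was used. Between 49.4 and 56.4% of reads aligned to several places and were not counted, and rows that name no gene stayed out of totals and tests.

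A gene was tested where 4 or more libraries reached 1 CPM (15280 genes), with edgeR 4.0.16 in R 4.3.3, with TMM factors, robust quasi-likelihood and one fit of all groups, and Benjamini-Hochberg adjustment at a threshold of 0.05. SE is the size of the log2 fold change over the root of its F statistic. The floor of 3 counts covers counting error only. Alternatives were RLE factors, library totals alone, no filter, 1 CPM in all libraries, only the groups compared, the replicate number as a block, DESeq2 1.42.0 and each library left out. Same-numbered libraries did not deviate together.

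The 44 members and the other lists were chosen with earlier results of these data known. The 32 members given with the values of single libraries were up to 3 with the largest called rise and decrease without overlap in each comparison, up to 3 with the largest called interaction, and the member of each role class with the highest mean level. From other lists, genes were named among up to 2 a direction by the same rule. Promoter windows came from RefSeq (GRCm38.p6) for 36 members, and gene positions from the GENCODE annotation of GRCm38.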

Additional observations from a re-analysis of the deposited data

Results flagged for a closer look

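For the 32 named members, each of the 8 groups of 4 libraries was checked for a library apart from the other 3 by Dixon's criterion, which chance alone meets in about 1 in 20 groups. Of 256 groups, 17 met it. Libraries apart on the high side or the low side were as follows. In C1 they were Mcm2 in replicate 2 (118 CPM) and Orc2 in replicate 1 (213 CPM). In C1M it was Pold2 in replicate 1 (73.0 CPM), and in C1H Rrm1 in replicate 3 (106 CPM). In C1T they were Mcm10 in replicate 1 (186 CPM) and Rpa2 in replicate 4 (710.5 CPM). In C1MV they were Mcm10 (167 CPM) and Mcm7 (1203 CPM) in replicate 1, Rnaseh2a in replicate 3 (108 CPM) and Pold1 in replicate 4 (72.7 CPM). In C1MDT they were Pold2 (127 CPM) and Tipin (152 CPM) in replicate 1 and Mcm3 in replicate 2 (721 CPM). In C1HV they were Cdc6 (62.4 CPM) and Tipin (101 CPM) in replicate 4. In C1HDT they were Mcm2 in replicate 1 (253 CPM) and Orc5 in replicate 2 (86.0 CPM).

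The largest called differences between the change over differentiation in induced cells and that in C1 cells, each tested as an interaction in the edgeR fit, were these. In C1MV they were those of Rpa2 (-0.84), Fen1 (-0.83) and Prim2 (-0.81). In C1MDT they were those of Prim2 (-0.90), Rfc4 (-0.83) and Cdc45 (-0.75). In C1HV they were those of Prim2 (-0.98), Fen1 (-0.77) and Rfc5 (-0.68). In C1HDT they were those of Prim2 (-0.84), Orc3 (0.83) and Gins3 (-0.81). The calls of Prim2 in all 4 groups and those of Rfc4 and Cdc45 were lost without single libraries, as given above.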

How the results depend on the processing

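The counts of members past the threshold stayed within 1.5 times the reported ones in the 20 comparisons under RLE factors, library totals alone, both other filters, the replicate block and DESeq2. With only the groups compared, C1H vs C1M had 5 calls against 3, and the cause was not tested. With single libraries left out, the counts ran from 1 (without C1M replicate 2) to 4 in C1H vs C1M, from 5 (without C1HV replicate 2) to 11 in C1HDT vs C1HV, where C1HDT replicate 4 left 7, and from 7 (without C1M replicate 1) to 13 in the difference between C1MV vs C1M and C1T vs C1. With library totals alone the summed level of the members was 7076 CPM in C1M, 6787 in C1H, 8782 in C1T and 8349 in C1HV, outside the spread between replicates, and the day 4 means stayed above those of day 0. With 1 CPM required in all libraries, C1H vs C1 had 6 members higher and 8 lower. Of 87 named calls, 19, of 13 members, were lost without at least 1 library, and none turned its direction in any setting run. The replicate block took the difference of Prim2 in C1MV from a log2 value of -0.81 to -0.82 with an FDR of 0.0525, and it changed no other named call. Same-numbered libraries correlated at -0.00163 on average, and others at 0.000545, so the numbers do not pair the samples. With 3 counts at 0.822 to 2.19 CPM, the depth limits Rpa3 above all.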
